A study of Mus musculus with 16 samples.

Results

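Fatty acid oxidation was followed here through the mRNAs of 31 genes out of the 24485 gene IDs measured, in immortalized mouse embryonic fibroblasts of the 2 lines of the study. The set holds the enzymes and carriers that bring long-chain fatty acids into mitochondria and oxidize them there, the peroxisomal branch, the acyl-CoA synthetases that activate fatty acids, and the regulators Ppara, Ppard and Ppargc1a. The genes were chosen by name, from their known roles and with earlier results of these data known, and matched through their gene IDs. All 31 were found. The exp line has the genotype R26M2rtTA/+;TetOcre;Sdhcfl/fl and the ctl line R26M2rtTA/+;TetOcre;Sdhcfl/wt. In both lines a reverse tetracycline transactivator at the Rosa26 locus drives a Cre recombinase when doxycycline is present, which was added at 1 µg/mL. Both lines were grown in low-glucose medium with serum, and the ctl line carries a floxed Sdhc allele as well. Each line gave 8 polyA mRNA libraries, of which 3 were from day 16, 1 was from day 20 and 1 each came from days 0, 5, 9 and 12. Each genotype is represented by 1 cell line, so line and genotype cannot be told apart, and the p-values measure the spread between libraries of these lines.

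In mitochondrial β-oxidation a fatty acid is first joined to coenzyme A, handed to carnitine by carnitine palmitoyltransferase 1, carried across the inner membrane and handed back to coenzyme A. Each turn of the cycle then uses an acyl-CoA dehydrogenase, a hydratase, a hydroxyacyl-CoA dehydrogenase and a thiolase, and releases acetyl-CoA for the citric acid cycle. The electrons taken by the acyl-CoA dehydrogenases pass through the electron transfer flavoprotein to ubiquinone, the same pool that succinate dehydrogenase feeds. Peroxisomes run a parallel branch with acyl-CoA oxidases in the first step.

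The libraries hold 18121520 to 42486438 reads in genes. The values are FPKM, fragments per kilobase of gene scaled to library size, and differences are given as log2(FPKM + 1), exp minus ctl. Sdhc, the targeted gene, stood at 87.8 FPKM in exp and 90.5 in ctl on day 0 and had fallen in both lines by day 5, to 54.4 and 58.6. The pairs of libraries differed by -0.04, -0.11, -0.12 and -0.25 on days 0, 5, 9 and 12 and by -0.36 on day 20. Its slope difference was not called (limma adjusted p = 0.384). By day 16 Sdhc was at 32.0 ± 5.23 against 49.4 ± 1.66 (mean ± SD, n = 3 per line), and exp differed from ctl by -0.62 ± 0.12 (SE; limma adjusted p = 0.0434). That call held without exp replicate 1. It was lost without exp replicate 2 or 3 (0.134 and 0.0692), without ctl replicate 1, 2 or 3 (0.107, 0.15 and 0.146), after median-of-ratios rescaling (0.0524) and when lowly expressed genes were kept (0.0614). At day 16, replicates 2 and 3 of a line resembled each other more (r = 0.995 in exp and 0.997 in ctl across genes) than either resembled replicate 1 (0.951 and 0.953 in exp, 0.979 and 0.981 in ctl). The 9 fibroblast markers summed to 4601 to 5330 FPKM in exp and 4117 to 4407 in ctl, but single markers differed: at day 16, 3 of 9 were called higher in exp, Col1a2 and Thy1 among them (2.72 and 2.34), and 2 lower, Pdgfra among them (-1.50). The summed FPKM of 9 mesothelial and simple epithelial markers was 867 in exp day 16 replicate 1 and 769 in exp day 20, 72.8 and 82.3 in exp day 16 replicates 2 and 3, 133 to 265 in the other exp libraries and 98.9 to 128 in ctl. Of these markers, Upk3b, Upk1b, Wt1, Krt8, Krt18 and Epcam were under 1 FPKM in every ctl library, and in exp only Epcam was. Msln made up most of the ctl sum at day 16, with 114 ± 8.94 FPKM against 55.8 ± 65.6 in exp. Its log2 difference was 0.34 in the replicate 1 pair and a mean of -2.67 in the other day 16 pairs, so the sums of the lines rest on different genes. Among 7 adipocyte markers, 6 were under 1 FPKM in every library of both lines, Adipoq and Plin1 among them, and all 4 hepatocyte markers were. The seventh adipocyte marker, Cebpa, averaged 4.31 ± 1.02 FPKM across the exp day 16 libraries against 1.89 ± 0.373 for ctl, a difference of 0.87 ± 0.18 (limma adjusted p = 0.0461).

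At day 16 Cpt1a, the malonyl-CoA-regulated entry enzyme of the pathway, was lower in exp, and no other member passed the test. Over all days, Cpt1a, Acadm, Acads, Acadvl, Hadha and Hadhb, which act on long- to short-chain acyl-CoAs from carnitine transfer to the trifunctional protein, were lower in exp. Echs1, Hadh, Etfb and Decr1, which encode the short-chain hydratase, the short-chain hydroxyacyl-CoA dehydrogenase, the small flavoprotein subunit and a reductase for unsaturated chains, were higher. Echs1 differed most, with a mean of 36.8 FPKM over the 8 exp libraries against 22.5 over the 8 ctl libraries, a ratio of 1.64. Of the members, 28 had a mean FPKM of at least 1 and were tested, and Ehhadh, Ppara and Ppargc1a did not reach it.

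These counts stand against a high background, because the lines differed in many genes. At day 16, 1 of 28 members was called by limma at an adjusted p under 0.05 (3.57%), in the direction lower in exp, against 6.1% of 12533 genes called in either direction, 3.01% called lower and 3.1% called higher. Over all days, 10 of 28 members were called (35.7%), against 35.9% of 12559 genes. Of these, 4 members were higher (14.3%), against 19.2% of all genes, and 6 were lower (21.4%), against 16.7%. The share of members called over all days was thus close to that of all genes. The median difference over all days was -0.07 for the members and 0.01 for all genes, and at day 16 it was -0.07 and -0.01. At day 16 the 3 libraries of exp lay wholly above or below the 3 of ctl for 13 of 28 members (46.4%), against 31.9% of 12509 genes. These were Hadh, Echs1 and Etfb, which were above, and Cpt1a, Acadm, Acads, Acadvl, Hadha, Hadhb, Acaa2, Eci1, Eci2 and Acox3, which were below. The share of all genes with the same sign in every pair of libraries, or without overlap between the lines over all days, was not counted. Such patterns in single members below therefore have no background beside them.

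**Figure D1:**
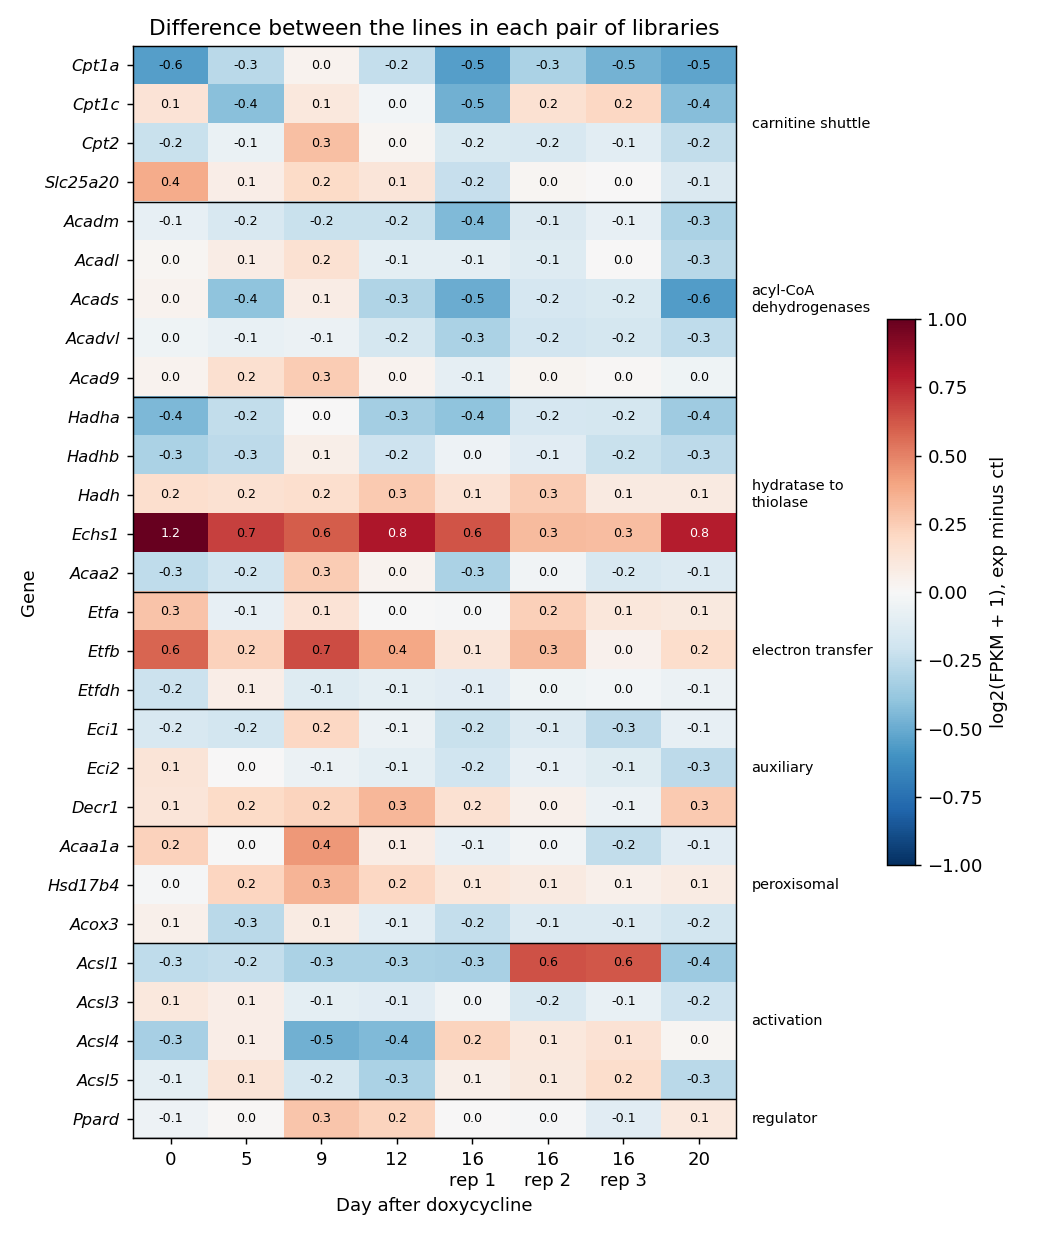
Difference between the lines in log2(FPKM + 1), exp minus ctl, for the 28 members tested (rows, grouped by role) in each of the 8 pairs of libraries (columns, by day and day 16 replicate). Red is higher in exp and blue lower; Echs1, Etfb and Hadh are higher in exp in all 8 pairs and Acadm and Acadvl lower in all 8, while the other rows hold both signs. The share of all genes with the same sign in all 8 pairs was not counted.

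The direction shared by most members changed from day to day. For the 20 mitochondrial genes, from the carnitine shuttle to the auxiliary enzymes, the median difference was 0.02, -0.07, 0.14 and -0.04 on days 0, 5, 9 and 12. It was -0.17, -0.06 and -0.07 in day 16 replicates 1, 2 and 3, and -0.19 at day 20. For all genes these medians lay between -0.02 and 0.08. Day 9 stood out, with 4 of the 20 mitochondrial genes lower in exp, against 15 of 20 at day 20 and 16 of 20 in day 16 replicate 1. Of all genes, 47.7% were lower in exp on day 9, 53.5% at day 20 and 52.9% in day 16 replicate 1. The lowest share among the pairs was 41.9%, on day 0. Summed over the 20 genes, the exp line had 455, 460, 509 and 462 FPKM at days 0, 5, 9 and 12, then 404, 403 and 395 in the day 16 libraries and 407 at day 20. The ctl line had 428, 465, 451 and 452, then 447, 405 and 414, and 441. The sums of the lines overlapped, and the exp sums were highest at day 9. The mesothelial marker sum was high in the same exp day 16 replicate 1 and day 20 libraries in which 16 and 15 of the 20 mitochondrial genes were lower. In exp day 16 replicates 2 and 3, where the sum was lowest, 12 of 20 were lower, as on day 12, and 11 of 20 were on day 5. On days 0 and 9, with sums of 265 and 133 FPKM in exp, 9 and 4 of 20 were lower, so the counts did not follow the sum throughout. The part of the marker sum in these counts was not tested.

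The carnitine shuttle opened with the largest negative difference of the set. Cpt1a (gene ID 12894, chromosome 19, 3323301 to 3385732 on the plus strand of mm9) encodes the liver-type carnitine palmitoyltransferase 1 of the outer mitochondrial membrane, which malonyl-CoA inhibits. Its exp values on days 0, 5, 9 and 12 were 16.7, 25.0, 26.6 and 24.3 FPKM, followed by 18.0, 18.1 and 17.8 in the day 16 replicates and 18.7 on day 20. Its ctl values, in the same order, were 25.0, 30.3, 26.0, 28.9, then 26.8, 22.8 and 25.1, and 27.4. The exp libraries were lower in 7 of 8 pairs, with day 9 the exception, and at day 16 the groups did not overlap. Mean levels on that day were 18.0 ± 0.184 and 24.9 ± 1.99 FPKM (SD, n = 3), a ratio of 0.721, and the log2 difference was -0.45 ± 0.07 (limma adjusted p = 0.0237). The call was lost without exp replicate 2 (0.0972), exp replicate 3 (0.0993) or ctl replicate 3 (0.125), and the difference in replicates 2 and 3 alone was -0.40. Over all days Cpt1a was lower by -0.36 ± 0.06 (limma adjusted p = 0.00112). The day 0 pair, 1 library per line, differed by -0.55. The RefSeq promoter window of Cpt1a, from 250 bases before to 50 bases after the start (GRCm38.p6, chr19:3323051-3323350, plus strand), is shown because this gene carries the day 16 call; capitals mark its match to the nuclear receptor site AGGTCA, which lies on the opposite strand and so reads as its reverse complement.
Cpt1a: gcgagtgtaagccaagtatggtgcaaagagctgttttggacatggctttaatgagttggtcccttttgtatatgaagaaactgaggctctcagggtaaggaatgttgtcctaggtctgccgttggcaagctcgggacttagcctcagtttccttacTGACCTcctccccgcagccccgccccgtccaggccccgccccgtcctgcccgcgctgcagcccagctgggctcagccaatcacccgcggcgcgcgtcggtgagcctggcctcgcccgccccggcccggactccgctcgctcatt

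The other carnitine genes differed less between the lines. Cpt1c, a relative of Cpt1a that is best known from neurons, had an exp range of 7.16 to 13.9 FPKM and a ctl range of 10.4 to 12.9. The exp values of Cpt1c split at day 16, with 7.16 in replicate 1 and 13.3 and 13.4 in replicates 2 and 3, and its day 16 means were 11.3 ± 3.57 and 11.2 ± 0.757. Cpt2, the inner-membrane carnitine palmitoyltransferase that regenerates acyl-CoA, averaged 19.3 ± 2.0 FPKM in the exp and 21.4 ± 2.29 in the ctl libraries of day 16, and the groups overlapped.

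Slc25a20, the carnitine-acylcarnitine translocase of the inner membrane, fell with time in the exp line. It (gene ID 57279, mm9 chromosome 9, 108564429 to 108586972, plus strand) began in exp with 20.0, 18.8, 18.2 and 18.1 FPKM on days 0, 5, 9 and 12 and had 14.0, 14.9 and 14.2 in the day 16 replicates and 15.0 on day 20. In ctl the values were 15.2, 17.9, 15.9 and 16.5, then 16.6, 14.7 and 14.1 at day 16 and 16.7 at day 20. All 4 exp libraries up to day 12 were above all ctl libraries, and the later ones lay in the ctl range or just below it. The slope in exp was -0.52 ± 0.12 per 20 days (limma adjusted p = 0.0325), against -0.05 ± 0.12 in ctl. The slope difference, -0.47 ± 0.14, missed the threshold (limma adjusted p = 0.26), so the change is not shown to differ between the lines. The exp call was lost without exp replicate 1, 2 or 3 (0.0659, 0.0548 and 0.0601), without day 0 (0.203), day 9 (0.0532) or day 16 (0.194), with the day 16 libraries averaged (0.114), and after median-of-ratios rescaling (0.0828) or quantile normalization (0.067). The Slc25a20 promoter window (RefSeq, GRCm38.p6, chr9:108661886-108662185, plus strand) is shown because this was the member called within the exp line. Capitals mark a match to a direct repeat of AGGTCA with 1 base between the copies, up to 2 of the 12 bases differing, the arrangement known for PPAR and RXR pairs.
Slc25a20: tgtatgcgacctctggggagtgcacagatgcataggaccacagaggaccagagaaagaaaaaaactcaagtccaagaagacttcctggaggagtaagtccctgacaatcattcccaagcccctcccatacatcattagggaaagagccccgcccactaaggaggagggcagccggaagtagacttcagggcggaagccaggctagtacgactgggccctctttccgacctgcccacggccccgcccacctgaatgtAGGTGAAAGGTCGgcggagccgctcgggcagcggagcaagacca

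**Figure D2:**
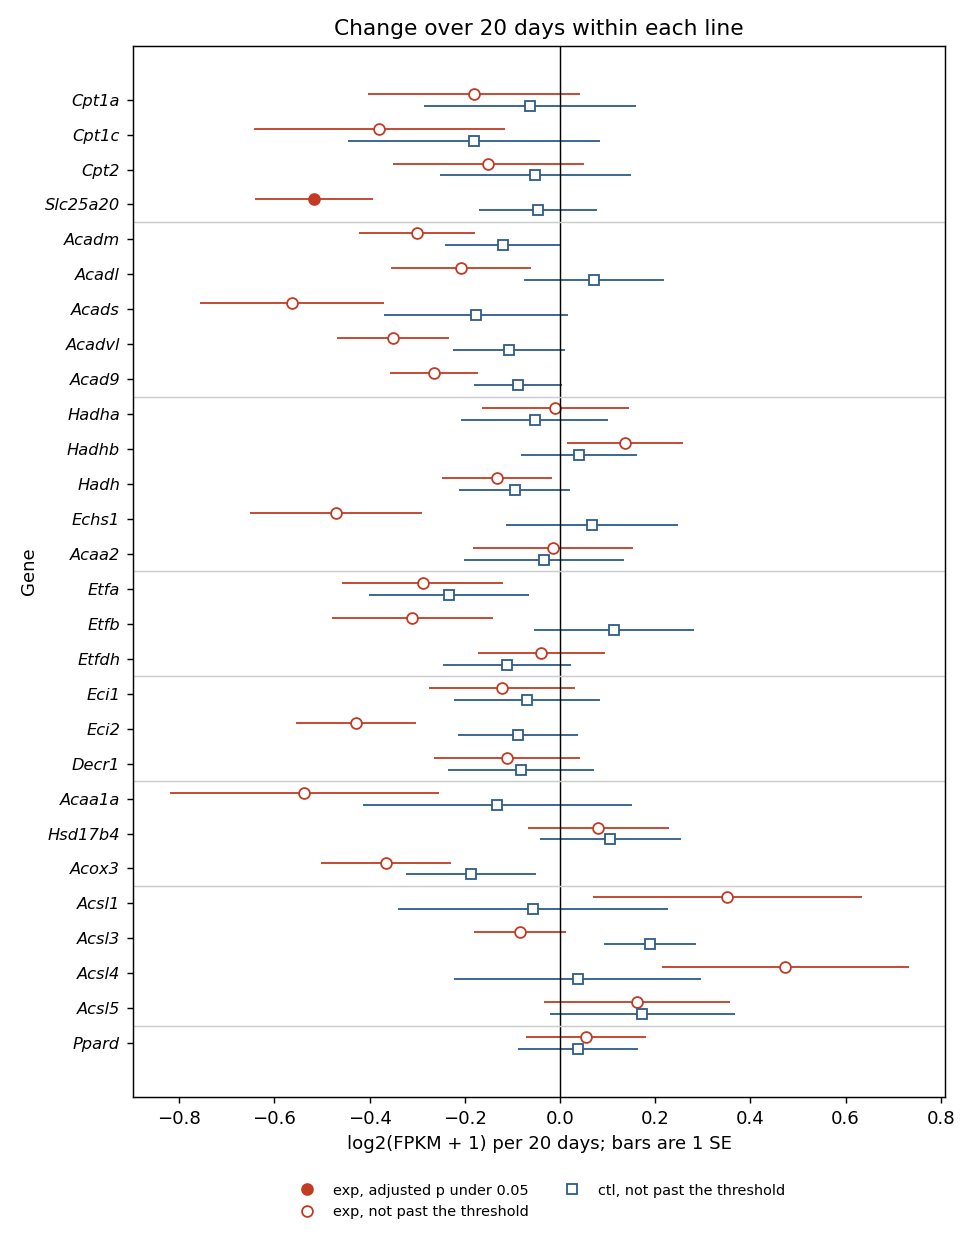
Linear change of log2(FPKM + 1) over 20 days within the exp line (red circles) and the ctl line (blue squares) for the 28 members tested, with bars of 1 SE; filled symbols passed an adjusted p under 0.05. Slc25a20 in exp, at -0.52, is the only filled symbol, and no ctl slope passed. The bars rest on a spread per gene that the lines share.

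Slc25a20 was 1 of 28 members that fell in the exp line (3.57%), against 3.59% of all 12559 genes. No member rose, against 1.36%. In the ctl line no member was called and none had an unadjusted p under 0.05, where limma called 0.0% of all genes and 203 genes had an unadjusted p under 0.05. Both slopes came from a joint fit with a shared spread per gene, while the SD over the libraries was wider in exp for 88.0% of all genes. For such genes the shared spread can be too wide for ctl and too narrow for exp. The lack of ctl calls therefore does not show that ctl stayed unchanged. The slope difference called no member, against 0.207% of all genes, and 3 members and 1388 genes had an unadjusted p under 0.05 there. The median slope in exp was -0.17 for the members and -0.09 for all genes, so the members are read relative to a general downward shift of the FPKM values. After median-of-ratios rescaling the all-gene median was 0.02, and the calls over all genes went from 171 rising and 451 falling to 263 and 157, with 263 and 250 after quantile normalization.

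The mitochondrial acyl-CoA dehydrogenases, which take the first oxidation step and differ in the chain length they prefer, gave 3 of 5 members lower in exp over all days and none higher, where 16.7% of all genes were lower and 19.2% higher. Acads, the short-chain enzyme, had exp values of 28.8, 22.5, 32.2 and 23.9 FPKM on days 0, 5, 9 and 12, of 21.2, 19.6 and 21.5 in the day 16 replicates and of 18.9 on day 20. The ctl values were 28.1, 30.1, 30.6 and 29.7, then 30.3, 22.2 and 24.0, and 28.3. The lines were alike at days 0 and 9 and apart on the other days, and at day 16 the highest exp value was just below the lowest ctl value. The difference was -0.27 ± 0.12 at day 16 (limma adjusted p = 0.253) and -0.25 ± 0.08 over all days (limma adjusted p = 0.0311), and the slope in exp was -0.56 ± 0.19 (limma adjusted p = 0.0989). Acadm, the medium-chain enzyme, ranged from 15.9 to 22 FPKM in exp with a median of 20.3, and from 21.2 to 24.8 in ctl with a median of 22.2. Its day 16 means were 18.9 ± 2.62 and 22.1 ± 0.502. Acadm was lower in exp in 8 of 8 pairs, by -0.21 ± 0.05 over all days (limma adjusted p = 0.0103). Acadvl, the very-long-chain enzyme bound to the inner membrane, ranged from 25.8 to 34.5 FPKM in exp (median 28.6) and from 29.5 to 36.0 in ctl (median 33.2). Its day 16 means were 26.9 ± 1.24 and 31.7 ± 3.15. Acadvl too was lower in exp in 8 of 8 pairs, by -0.16 ± 0.05 over all days (limma adjusted p = 0.0224). Acadl, the long-chain enzyme, and Acad9, which also serves in the assembly of respiratory complex I, overlapped between the lines, with day 16 means of 22.2 ± 1.10 against 23.4 ± 0.986 FPKM and of 10.3 ± 0.365 against 10.4 ± 0.168. The Acads call over all days was lost without exp replicate 2 (0.0565), ctl replicate 1 (0.0509), day 5, 12, 16 or 20 (0.0752, 0.0664, 0.133 and 0.0861), without day 16 replicates 2 and 3 (0.0508) and with the day 16 libraries averaged (0.0696). The Acadvl call was lost without day 16 (0.175), day 20 (0.0608) or day 16 replicates 2 and 3 (0.0581), and with the day 16 libraries averaged (0.0708).

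Hadha and Hadhb encode the α and β subunits of the mitochondrial trifunctional protein, which holds the hydratase, hydroxyacyl-CoA dehydrogenase and thiolase activities for long chains, and both were lower in exp over all days. Hadha (gene ID 97212, mm9 chromosome 5, 30444841 to 30481702, minus strand) showed 16.2, 21.1, 23.9 and 18.8 FPKM in exp on days 0, 5, 9 and 12, then 18.1, 18.6 and 19.0 in the day 16 replicates and 18.3 on day 20. For ctl the values were 22.5, 25.2, 23.9 and 24.0, then 24.3, 21.0 and 21.6, and 23.7. Only at day 9 did the lines meet, and at day 16 they did not overlap. Hadhb (gene ID 231086, mm9 chromosome 5, 30481788 to 30511133, plus strand) had 6.89, 7.95, 8.44 and 6.95 FPKM in exp on those days, then 8.32, 8.23 and 7.64, and 7.98. Its ctl values were 8.85, 9.75, 8.05 and 8.19, then 8.63, 8.98 and 9.10, and 9.76. Hadhb was lower in exp in 7 of 8 pairs, and day 9 was again the exception. The differences over all days were -0.27 ± 0.05 for Hadha (limma adjusted p = 0.0019) and -0.17 ± 0.05 for Hadhb (limma adjusted p = 0.0161). At day 16 they were -0.25 ± 0.07 (limma adjusted p = 0.108) and -0.13 ± 0.06 (0.305). The Hadhb call was lost without day 16 (0.0874), without day 16 replicates 2 and 3 (0.0703) and with the day 16 libraries averaged (0.0542). The genes lie head to head, with RefSeq starts 273 bases apart on opposite strands of GRCm38.p6. The promoter window of Hadhb (chr5:30155003-30155302, plus strand) is shown because the pair shares it, and capitals mark the 228 bases that also belong to the promoter window of Hadha (chr5:30154931-30155230, minus strand).
Hadhb: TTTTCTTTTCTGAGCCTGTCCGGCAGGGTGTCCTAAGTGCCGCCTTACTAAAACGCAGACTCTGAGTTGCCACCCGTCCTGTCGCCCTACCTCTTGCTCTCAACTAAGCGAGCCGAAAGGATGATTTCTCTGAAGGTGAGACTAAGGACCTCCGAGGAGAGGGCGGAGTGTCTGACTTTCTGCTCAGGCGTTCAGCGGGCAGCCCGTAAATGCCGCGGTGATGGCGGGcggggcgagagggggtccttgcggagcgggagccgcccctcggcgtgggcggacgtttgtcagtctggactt

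Echs1, the short-chain enoyl-CoA hydratase of the matrix, was the member with the largest difference between the lines. Echs1 (gene ID 93747, mm9 chromosome 7, 147291609 to 147302375, minus strand) measured 48.9, 37.6, 35.1 and 40.6 FPKM in exp on days 0, 5, 9 and 12, 38.6, 28.2 and 28.1 in the day 16 replicates and 37.5 on day 20. The ctl libraries held 20.6, 23, 22.8 and 22.8, then 24.6, 22.5 and 22.4, and 21.4. Every exp library was above every ctl library, on every day including day 0, when the difference of 1.21 was the largest of the 8 pairs. The difference over all days was 0.67 ± 0.10 (limma adjusted p = 0.000242). On day 16 alone the coefficient was 0.42 ± 0.13 and missed the threshold (limma adjusted p = 0.138). The replicate 1 pair differed by 0.63 and each of the other pairs by 0.31. In replicates 2 and 3 alone the limma adjusted p was 0.00153. The slope in exp was -0.47 ± 0.18 and the slope difference -0.54 ± 0.27 (limma adjusted p = 0.130 and 0.512). The promoter window of Echs1 (RefSeq, GRCm38.p6, chr7:140116372-140116671, minus strand, printed along that strand) is shown because this gene differed most, and capitals mark its match to the same direct repeat as in Slc25a20.
Echs1: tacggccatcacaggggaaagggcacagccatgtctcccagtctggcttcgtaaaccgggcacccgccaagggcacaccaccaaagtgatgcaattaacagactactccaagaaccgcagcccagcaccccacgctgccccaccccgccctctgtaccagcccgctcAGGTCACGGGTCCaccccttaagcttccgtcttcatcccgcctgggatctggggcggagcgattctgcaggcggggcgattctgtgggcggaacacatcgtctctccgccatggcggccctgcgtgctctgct

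Hadh, the matrix dehydrogenase for short- and medium-chain hydroxyacyl-CoAs, was also higher in exp. Its exp values were 36.5, 38.7, 38.1 and 41.8 FPKM on days 0, 5, 9 and 12, then 35.2, 35.6 and 32.4 in the day 16 replicates and 35.5 on day 20. Its ctl values were 32.5, 34.7, 33.7 and 34.8, then 31.7, 29.8 and 30.5, and 33.3. The exp library was higher in 8 of 8 pairs, by a narrow and steady margin of 0.09 to 0.26. Over all days the difference was 0.17 ± 0.04 (limma adjusted p = 0.00461), a call lost without day 16 (0.0668). Acaa2, the mitochondrial thiolase, averaged 23.3 ± 0.982 FPKM in the exp and 26.4 ± 1.68 in the ctl libraries of day 16, where the groups did not overlap, but on days 9 and 12 its exp values of 32.6 and 29.1 were above the ctl values of 27.3 and 28.3. Its difference over all days, -0.10 ± 0.06, did not pass (limma adjusted p = 0.195).

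**Figure D3:**
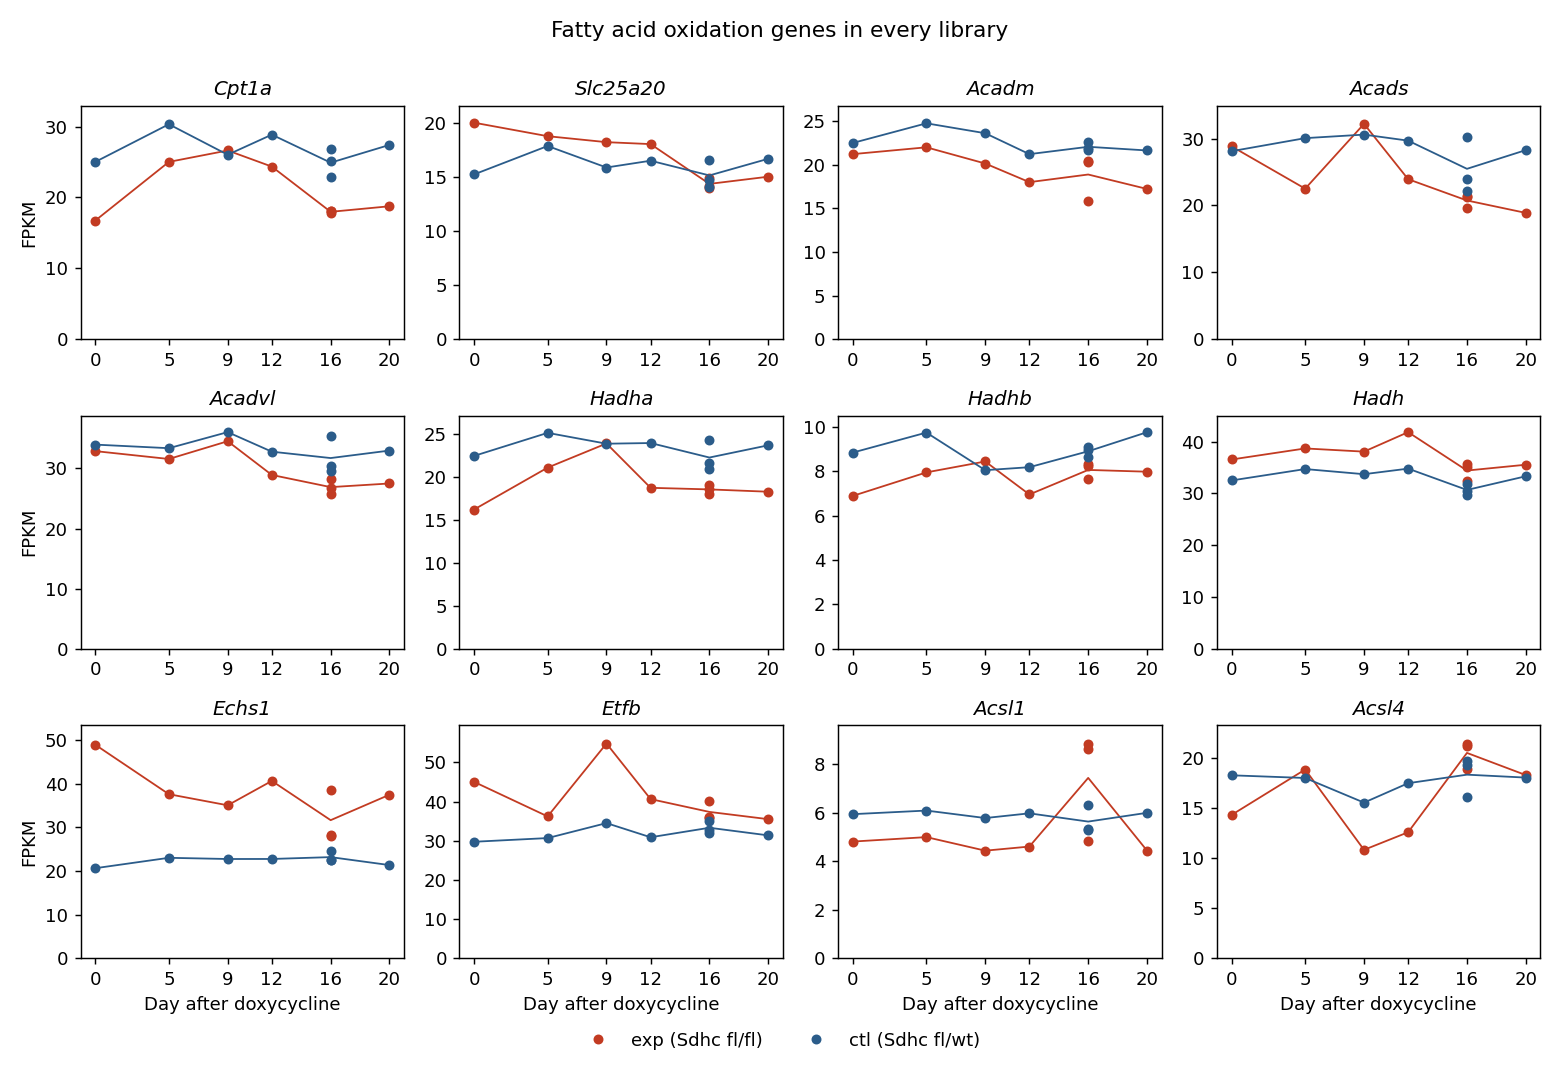
FPKM of 12 members in every library (points) by day after doxycycline, exp in red and ctl in blue; lines join the daily values, with the mean of 3 libraries at day 16. Echs1 and Etfb lie above ctl on every day, Cpt1a and Hadha lie below except at day 9, and Acsl1 in exp stands at 8.82 and 8.62 FPKM only in day 16 replicates 2 and 3.

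Of the genes that pass electrons to ubiquinone, Etfb was higher in exp and its partners were not called. Etfb, the β subunit of the electron transfer flavoprotein, showed 45.0, 36.2, 54.8 and 40.6 FPKM in exp on days 0, 5, 9 and 12, then 35.7, 40.2 and 36.1 in the day 16 replicates and 35.5 on day 20. The values for ctl were 29.7, 30.7, 34.5 and 30.9, then 32.8, 32.1 and 35.0, and 31.4. The lines did not overlap, and the pair differences were 0.58 on day 0, 0.65 on day 9 and 0.17 on day 20. The difference was 0.31 ± 0.07 over all days (limma adjusted p = 0.00347) and 0.16 ± 0.07 at day 16 (limma adjusted p = 0.255), and the slope difference was -0.42 ± 0.18 (limma adjusted p = 0.417). Etfa, the α subunit with which it forms a dimer, ranged from 7.37 to 11.1 FPKM in exp and from 7.18 to 10.2 in ctl. Etfdh, the membrane oxidoreductase that hands the electrons to ubiquinone, ranged from 21.2 to 27.7 and from 22.1 to 27.0. Their day 16 means were 9.20 ± 1.86 against 8.36 ± 0.922 for Etfa and 22.2 ± 0.803 against 23.3 ± 1.59 for Etfdh. Neither difference over all days passed the test, at 0.10 for Etfa and -0.08 for Etfdh (limma adjusted p = 0.347 and 0.188).

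The auxiliary enzymes deal with double bonds that the main cycle cannot take. Decr1, the mitochondrial dienoyl-CoA reductase, ranged from 8.71 to 12.1 FPKM in exp (median 10.9) and from 8.70 to 10.3 in ctl (median 9.31). The day 16 means of Decr1 were 9.28 ± 0.712 and 8.93 ± 0.209, and the groups overlapped. It was higher in exp in 7 of 8 pairs, by 0.16 ± 0.05 over all days (limma adjusted p = 0.0241). That call was lost after quantile normalization (0.0651) and without day 5, 9, 12 or 20 (0.0531, 0.052, 0.0664 and 0.0671). Eci1 and Eci2 encode enoyl-CoA isomerases, Eci2 with a peroxisomal form too. On day 16 both lay below ctl without overlap, with 24.1 ± 1.21 against 28.0 ± 1.74 FPKM for Eci1 and 20.6 ± 0.648 against 22.7 ± 1.62 for Eci2, and neither passed (limma adjusted p = 0.156 and 0.322).

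The peroxisomal branch gave no call at day 16, over time or over all days among its 3 tested members. Acaa1a, a peroxisomal thiolase, varied widely in exp, from 21.0 FPKM in day 16 replicate 3 to 45.0 at day 9, and from 23.1 to 34.0 in ctl. Both lines had their lowest Acaa1a values in day 16 replicates 2 and 3, where exp had 22.4 and 21.0 and ctl 23.1 and 25.2, against 31.5 and 33.4 in replicate 1. Its day 16 means of 25.0 ± 5.69 and 27.2 ± 5.45 overlapped. Hsd17b4, the peroxisomal D-bifunctional protein, ranged from 9.31 to 12.7 FPKM in exp and from 9.39 to 11.5 in ctl, and was higher in exp in 7 of 8 pairs, with day 16 means of 11.4 ± 0.926 and 10.7 ± 1.08. Its difference over all days was 0.14 ± 0.06 (limma adjusted p = 0.0791), which passed with the replicate number as a block (0.0426) and without exp replicate 1 (0.0394). Acox3, an acyl-CoA oxidase that acts on branched chains, averaged 6.12 ± 0.587 FPKM in the exp and 7.01 ± 0.365 in the ctl libraries of day 16, without overlap (limma adjusted p = 0.316). Ehhadh, the L-bifunctional protein, was low, at 0.488 to 0.843 FPKM in exp and 0.419 to 0.698 in ctl, from 36 to 103 reads per library, and did not reach the 1 FPKM needed to be tested. Ehhadh was higher in exp in 7 of 8 pairs, with a mean ratio of 1.31 over 8 libraries, and at day 16 its groups did not overlap (ratio 1.40). Summed, the 4 peroxisomal genes held 40.4 to 66.4 FPKM in exp, with the maximum on day 9 as for the mitochondrial sum, and 41.8 to 52.4 in ctl.

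Among the acyl-CoA synthetases, which activate long-chain fatty acids for oxidation or for lipid synthesis, Acsl1 showed the sharpest split between libraries. The exp libraries held 4.81, 4.99, 4.43 and 4.60 FPKM on days 0, 5, 9 and 12, then 4.84, 8.82 and 8.62 in the day 16 replicates and 4.43 on day 20. The ctl line had 5.93, 6.08, 5.77 and 5.97, then 6.31, 5.31 and 5.26, and 5.99. The exp line was below ctl in 6 of 8 pairs, by -0.24 to -0.36, and above it by 0.64 and 0.62 in the day 16 replicate 2 and 3 pairs. The day 16 coefficient of 0.31 ± 0.22 missed the threshold (limma adjusted p = 0.462). It was 0.63 in replicates 2 and 3 alone (limma adjusted p = 0.000246) and passed without exp replicate 1 (0.0208). Over all days the coefficient was -0.07 ± 0.13 (limma adjusted p = 0.714). Without day 16 replicates 2 and 3 it was -0.30 and called lower (limma adjusted p = 0.0027). Those 2 exp libraries were also the ones with the lowest mesothelial marker sums, 72.8 and 82.3 FPKM, and the part of this in Acsl1 was not tested.

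Acsl4, which prefers arachidonate, had 14.3, 18.9, 10.8 and 12.6 FPKM in exp on days 0, 5, 9 and 12, then 18.9, 21.2 and 21.4 in the day 16 replicates and 18.3 on day 20. Its ctl libraries had 18.3, 18.0, 15.5 and 17.5, then 16.1, 19.7 and 19.3, and 18.0. The exp values were below ctl at days 0, 9 and 12 and at or above it elsewhere. Acsl4 had the largest positive slope difference of the set, 0.44 ± 0.27, which did not pass (limma adjusted p = 0.592), and its slope in exp was 0.47 ± 0.26 (limma adjusted p = 0.283). Acsl3, a synthetase of the endoplasmic reticulum and lipid droplets, stayed between 19.9 and 24.7 FPKM in all 16 libraries. Acsl5, which is also found on mitochondria, ranged from 9.36 to 14.8 FPKM in exp and from 10.0 to 13.3 in ctl. The day 16 means were 21.7 ± 0.622 against 23.2 ± 1.61 for Acsl3 and 13.8 ± 1.30 against 12.7 ± 0.776 for Acsl5. Neither was called in any of the 5 comparisons.

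Of the regulators, only Ppard reached the mean of 1 FPKM needed to be tested in the main fits. Ppard, the broadly expressed PPAR, ranged from 21.2 to 27.0 FPKM in exp and from 21.4 to 24.0 in ctl, and its day 16 means were 22.2 ± 1.03 and 22.9 ± 1.34. It differed by -0.04 on day 16 and by 0.06 over all days, and neither passed (limma adjusted p = 0.786 and 0.431). Ppara, the PPAR of liver and other oxidizing tissues, had 5 to 52 reads per library, at 0.0271 to 0.127 FPKM in exp and 0.104 to 0.163 in ctl. Ppargc1a, the PGC-1α coactivator of mitochondrial genes, had 2 to 30 reads per library, at 0.0102 to 0.112 FPKM in exp and 0.0429 to 0.142 in ctl. Ppara was lower in exp in 8 of 8 pairs and Ppargc1a in 7 of 8, on few reads and below the filter of the main fits.

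**Figure D4:**
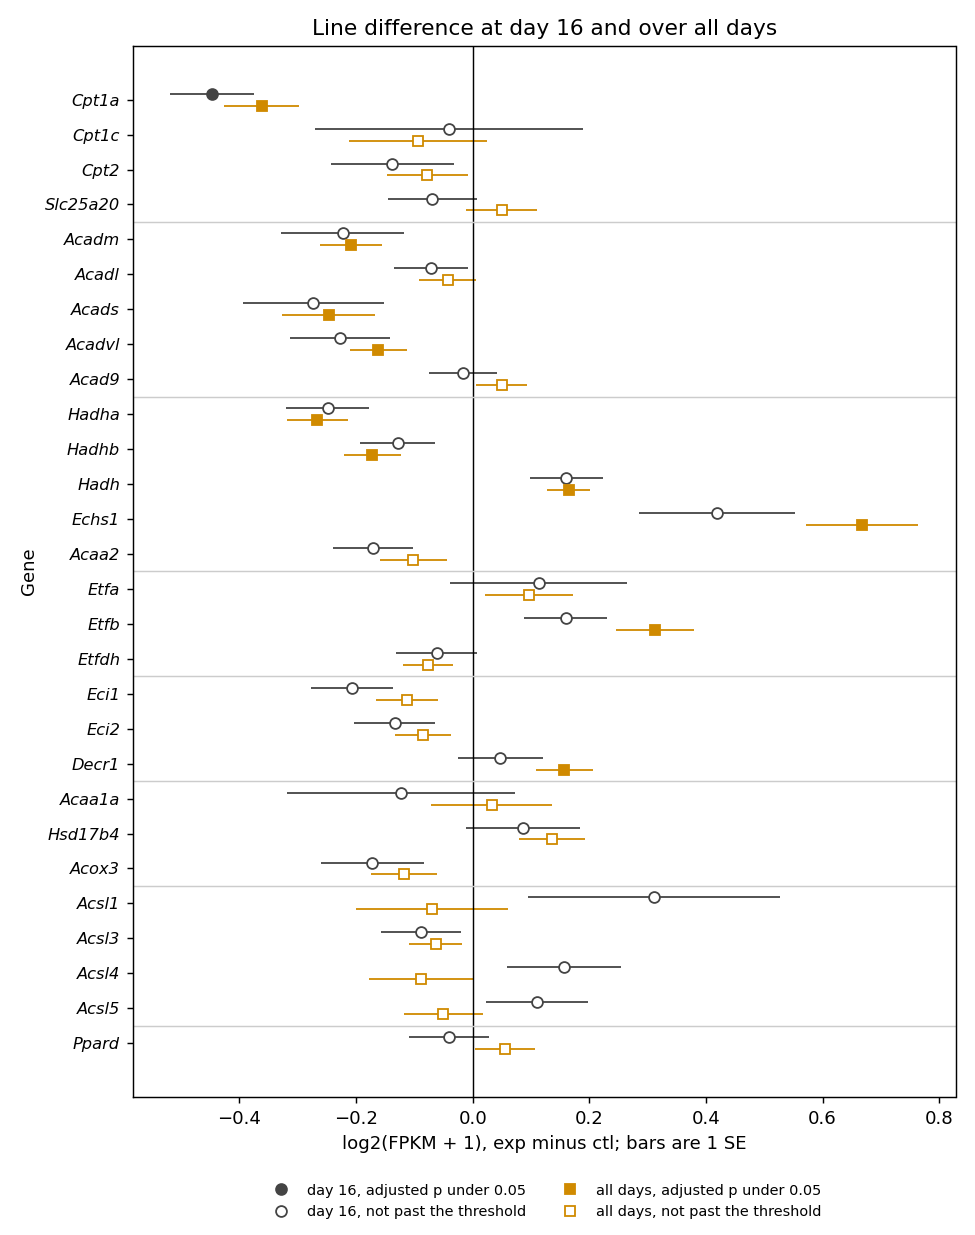
Difference between the lines in log2(FPKM + 1), exp minus ctl, at day 16 (dark grey circles) and over all days (orange squares) for the 28 members tested, with bars of 1 SE; filled symbols passed an adjusted p under 0.05. Cpt1a is filled in both, and 9 further members are filled over all days, from Hadha at -0.27 to Echs1 at 0.67.

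The members varied more within the exp line than within the ctl line. The SD over the 8 libraries was wider in exp for 27 of 28 members, with Acsl3 the exception, and for 88.0% of all genes tested. The median SD of the members on the log2 scale was 0.17 in exp and 0.10 in ctl, against 0.21 and 0.12 for all genes. Within exp, Acsl1, Acaa1a, Cpt1c and Acsl4 had the widest SDs, at 0.36, 0.35, 0.34 and 0.34, and Acsl3, Hadhb and Hadh the narrowest, at 0.07, 0.10 and 0.11. In level, Etfb, Hadh and Echs1 led the exp line, with means of 40.5, 36.7 and 36.8 FPKM over 8 libraries. Acadvl, Hadh and Etfb led the ctl line, with 33.0, 32.6 and 32.1. These 3 ctl means lie closer together than the libraries of each gene do. Echs1, among the highest in exp, had 22.5 in ctl.

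Genes of the wider oxidation network, from lists chosen with earlier results known, were described in the same way. Among 26 tested further oxidation genes at day 16, Phyh was higher and Acot13 lower, where 3.1% and 3.01% of all genes were called. Phyh, the peroxisomal phytanoyl-CoA hydroxylase of α-oxidation, averaged 6.63 ± 0.340 FPKM in exp and 3.42 ± 0.346 in ctl, a difference of 0.79 ± 0.09 (limma adjusted p = 0.0072). Acot13, a thioesterase, had 34.9 ± 2.73 and 47.4 ± 1.45 FPKM, a difference of -0.43 ± 0.07 (limma adjusted p = 0.0274). On day 0 Acot13 differed by 0.54, with exp the higher. In the exp line Acot13 fell by 0.92 ± 0.22 and Hsd17b10, a multifunctional matrix dehydrogenase, by 0.66 ± 0.16 per 20 days (limma adjusted p = 0.0309 and 0.0347), 2 of 27 genes of that list tested, and none rose, against 3.59% and 1.36% of all genes. The Acot13 call at day 16 was lost without exp replicate 3 (0.111) or ctl replicate 1, 2 or 3 (0.0645, 0.117 and 0.12). The slope calls of both genes were lost without day 0 (0.41 and 0.236), without day 16 (0.225 and 0.215), without any 1 exp day 16 replicate (0.052 to 0.0588 and 0.0587 to 0.0687), without day 16 replicates 2 and 3 (0.0662 and 0.058) and with the day 16 libraries averaged (0.124 each), and that of Hsd17b10 also without day 20 (0.0577) and after median-of-ratios rescaling (0.0716). Over all days 4 of 27 were higher, among them Phyh, Acot1 and Acot2, and 3 were lower, among them Amacr and Acad10, against 19.2% and 16.7% of all genes. Acot1 and Acot2, close paralogs whose reads may not be fully separated, encode a cytosolic and a mitochondrial thioesterase and were higher by 0.88 ± 0.12 and 1.03 ± 0.15. Amacr, a racemase for branched-chain acyl-CoAs, was lower by -0.29 ± 0.05 (limma adjusted p = 0.00112). The Acad10 call was the least firm, at -0.23 ± 0.08 (limma adjusted p = 0.0377), and was lost in 13 of 22 alternatives. These were each fit without 1 replicate (0.0559 to 0.0705), without day 5, 9, 16 or 20 (0.081, 0.0618, 0.304 and 0.0836), without day 16 replicates 2 and 3 (0.12), with the day 16 libraries averaged (0.155) and with the replicate number as a block (0.0509). Amacr and Acad10 were named after their values were seen.

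Genes of lipid uptake and storage and PPAR targets gave 3 of 18 higher in exp at day 16 and none lower, against 3.1% and 3.01% of all genes. Vnn1, a pantetheinase, averaged 26.3 ± 28.4 FPKM in exp and 0.404 ± 0.119 in ctl, and Lpl, lipoprotein lipase, 14.4 ± 16.5 and 0.0261 ± 0.0172, differences of 3.77 ± 0.68 and 3.38 ± 0.69 (limma adjusted p = 0.0343 and 0.0475). Both were far above ctl at day 0 already, by 3.74 and 3.14. At day 16 they differed by 5.51 and 5.10 in the replicate 1 pair and by a mean of 2.91 and 2.51 in the other pairs. The replicate 1 pair holds the exp library with the high mesothelial marker sum, and its part in these values was not tested. Slc27a3, an acyl-CoA synthetase of the fatty acid transport family, was higher by 0.39 ± 0.08 (limma adjusted p = 0.0417). The Lpl call was lost in 12 of 16 alternatives, with the replicate block among them (0.0538), that of Vnn1 in 8 and that of Slc27a3 in 6. Without exp replicate 2 or 3 or ctl replicate 1, 2 or 3 in turn, the adjusted p was 0.0849 to 0.165 for Lpl and 0.0553 to 0.131 for Vnn1. For Slc27a3 it was 0.0934 to 0.172 without exp replicate 2 or 3 or ctl replicate 2 or 3. Over all days 8 of 19 were higher and 1 was lower, against 19.2% and 16.7% of all genes. Vnn1, Lpl and Slc27a3 were among the higher, at 3.99 ± 0.35, 3.49 ± 0.36 and 0.58 ± 0.09. The lower gene was Pdk4, a kinase that shuts pyruvate dehydrogenase, at -0.81 ± 0.14 (limma adjusted p = 0.000723). It was named after its value was seen.

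Of the nuclear receptors and coregulators, Rxra, the partner receptor of the PPARs, was higher in exp at day 16, the only one of 17, against 3.1% of all genes. It averaged 30.8 ± 0.587 FPKM in exp and 23.1 ± 0.583 in ctl, a difference of 0.40 ± 0.05 (limma adjusted p = 0.0121), and differed by 0.10 on day 0. The call was lost without exp replicate 2 or 3 (0.0674 and 0.0673) or ctl replicate 2 or 3 (0.078 and 0.0693). Over all days Rxra was higher by 0.47 ± 0.07 (limma adjusted p = 0.000363), and 4 of 16 were lower, against 19.2% of all genes higher and 16.7% lower. Among these were Lpin1, the kinase subunit gene Prkaa2 and Pprc1, at -0.35 ± 0.09, -0.27 ± 0.07 and -0.21 ± 0.06. Prkaa2 and Pprc1 were named after their values were seen.

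Fatty acid synthesis, the opposing pathway, gave 3 of 14 higher at day 16 and none lower, against 3.1% and 3.01% of all genes. Acss2, which makes acetyl-CoA from acetate, averaged 8.2 ± 0.624 FPKM in exp and 5.28 ± 0.278 in ctl, a difference of 0.55 ± 0.08 (limma adjusted p = 0.0186). Fads1, a fatty acid desaturase, was higher by 0.43 ± 0.08 and Elovl1, an elongase, by 0.29 ± 0.05 (limma adjusted p = 0.0345 and 0.0367). The calls were lost without exp replicate 2 or 3 or ctl replicate 2 or 3 (0.0766 to 0.1 for Acss2, 0.0796 to 0.152 for Fads1 and 0.12 to 0.164 for Elovl1). Those of Fads1 and Elovl1 were also lost without ctl replicate 1 (0.0778 and 0.0525), and that of Fads1 with the replicate number as a block (0.0519). Over all days 6 of 14 were higher, against 19.2% of all genes, Acss2, Fads1 and Elovl1 among them at 0.54 ± 0.05, 0.47 ± 0.05 and 0.25 ± 0.04. The 2 lower genes, where 16.7% of all genes were lower, were Acly and Fasn, the ATP citrate lyase and the fatty acid synthase, at -0.29 ± 0.06 and -0.29 ± 0.05 (limma adjusted p = 0.00211 and 0.000891), named after their values were seen.

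The promoters of the members were searched for motifs of receptors known to act on this pathway, for NRF1 and CREB sites and for the TATA box. RefSeq windows of 300 bases were found for 27 of 31 members. The receptor site AGGTCA, on either strand, was in 5 of 27, namely Cpt1a, Cpt1c, Acadm, Acadvl and Echs1 (18.5%), against 18.1% of 27025 genes. The direct repeat, which is made of such sites and can overlap a match to one, was in 3 of 27, Slc25a20, Echs1 and Etfa (11.1%), against 4.40% of genes. The NRF1 core CGCATGCG was in Acadm, Etfdh and Ppara (11.1%), against 2.07%. No member window held the ERR site TCAAGGTCA, the CREB site TGACGTCA or the TATA box TATAAA, which were in 0.466%, 2.03% and 15.7% of genes.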

How the data were processed

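RNA of 16 libraries was analysed as FPKM per gene, the unit in which the authors deposited the values, 1 file per library. The submitters' processing notes name Bowtie2 2.2.3 and the mouse build mm9; which program counted reads, on which annotation and with which strand setting, is not given in the sources used here. Gene IDs were matched to symbols for 24416 of 24485 IDs, and gene positions come from the GENCODE annotation of mm9 (symbols matched by name). Whole reads were recovered from the steps between FPKM values for 18966 genes, all values lying within 0.000664 read of a whole number, which gives the depths in the report.

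Tests were run in R 4.3.3 by limma 3.58.1 (with statmod 1.5.0), on log2(FPKM + 1), with trend and robust empirical Bayes. They were two-sided and covered genes whose mean reached 1 FPKM over the fitted libraries, at a Benjamini-Hochberg adjusted p under 0.05 over all genes tested. A fold on this scale understates the change of low genes. The day 16 comparison used 6 libraries. The slope comparisons used all 16, and slopes are per 20 days. The comparison over all days, with day as a shared factor, was added after the data were seen. The fits were tested on simulated data. The members and lists were chosen with earlier results of these data known. Values in every library are given for members called in the day 16 or slope comparisons and for those with the 3 largest coefficients per direction at day 16 and in the slope difference. Other members have ranges and day 16 means, and other lists name up to 3 genes with the smallest p per comparison. Cpt1b stands in 2 lists. A few list genes that were called are counted but not reported here by name.

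Same-numbered day 16 replicates of the lines deviated together across genes (correlations of 0.38, 0.27 and 0.33, each over 0.1), and by that criterion the numbers were taken to pair the libraries. Exp replicate 3 with ctl replicate 2 (0.40) and exp 2 with ctl 3 (0.21) also correlated, so the values set replicate 1 apart from 2 and 3 and do not separate 2 from 3. Matching replicates 2 and 3 by number in the counts over pairs is thus a choice that the values do not settle. The main day 16 fit held no replicate term. The labels do not say what a number marks. The alternatives tried were pseudocounts of 0.1 and 5, no filter or a mean FPKM of 5, quantile normalization or median-of-ratios rescaling, limma with neither trend nor robust, voom on the recovered reads, each replicate or day left out, day 16 replicates 2 and 3 left out or alone, day 16 averaged, no day factor, and the replicate block.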

Additional observations from a re-analysis of the deposited data

How the results depend on the processing

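At day 16 the count of members higher in exp was 0 to 1 over the 6 fits that each left out 1 replicate, and 3 in replicates 2 and 3 only (Acsl1, Cpt1c and Echs1). The count lower in exp was 0 to 1 over the same 6 fits and 4 in replicates 2 and 3 only (Acadvl, Cpt1a, Eci1 and Hadha), against 1 in the report. The replicate block left these counts at 0 and 1, gave 5 higher and 6 lower over all days, where Hsd17b4 was added, and changed no other member call. For the slope in exp the count of falling members was 0 after median-of-ratios rescaling, after quantile normalization, without day 0, day 9 or day 16 and with the day 16 libraries averaged, 2 without day 5 (Acads and Slc25a20), and 0 to 1 over the fits without 1 replicate. Over all days, where 6 members were lower, 3 were with the day 16 libraries averaged and 8 without day 9, when Acaa2 and Eci1 were added. Acsl1 was called lower without day 16, Acox3 after quantile normalization, and with no filter on low values Ehhadh was called higher and Ppara lower. Cpt1a, Acadm, Hadha, Echs1 and Etfb kept their all-days call in all 23 alternatives.

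Some coefficients, none of them called, changed sign. The slope difference of Acsl1, 0.41 with all libraries, was -0.12 without day 16 and -0.11 without day 16 replicates 2 and 3, and that of Hadhb, 0.10 with all libraries, was -0.059 without day 0. The ctl slope of Slc25a20, -0.05 with all libraries, was 0.000196 after median-of-ratios rescaling, 0.00238 after quantile normalization, 0.038 without day 5, 0.063 without day 16, 0.060 without day 16 replicates 2 and 3 and 0.00572 with the day 16 libraries averaged, and it ran from -0.068 to 0.00501 over the fits without 1 replicate. The causes were not tested, beyond the smaller number of libraries in the fits that left some out. Over all genes, calls at day 16 ran from 98 to 907 higher and 99 to 692 lower over the fits without 1 replicate, against 388 and 377, and reached 2213 and 2113 among the other alternatives. Calls for the slope in exp ran from 7 to 391 rising and 2 to 1125 falling, and after quantile normalization stood at 263 and 250; those for the slope difference ran from 0 to 44 rising and 0 to 7 falling, against 23 and 3, and the ctl slope had up to 2 calls.

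With 1 library per line on each day but day 16, a value on those days has no replicate check, and depth limits Ehhadh, Ppara and Ppargc1a, which had 103 reads or fewer in every library.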
